A study of Homo sapiens with 8 samples.

Results

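The S100 genes described here are 7 named members of the S100 family of small calcium-binding proteins: S100A4, S100A6, S100A8, S100A9, S100A10, S100A11 and S100A12. They were picked by name, by pairing the Ensembl identifiers of the count table with gene symbols, and all 7 were found among its 63140 genes. RNA was recovered from human acute myeloid leukaemia (AML) cells by chromatin isolation by RNA purification (ChIRP), in which fixed and sonicated lysate is hybridised with biotinylated probes and the RNA that comes down with them is sequenced. The labels do not say which RNA the probes bind and name no input library, so each value is an amount of recovered RNA, and none is an enrichment over input. The study had 8 libraries in 4 groups, all taken on day 3 after editing, and each library was made from 10 ng of RNA.

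In the AAVS1 KO group, cells labelled with a wild-type genotype had received Cas9 ribonucleoprotein, a preassembled complex of the DNA-cutting nuclease and a guide RNA, directed at AAVS1, the control site of this series. In the HOTSCRAMBL KO group the guide of the same editor matched HOTSCRAMBL, a long non-coding RNA gene. The AAVS1 CBE group, also labelled wild-type, and the HOTSCRAMBL CBE group received instead a cytosine base editor with guides to the same targets; such an editor changes C to T and does not cut both DNA strands. Cells of all 4 groups had been nucleofected. In each group replicate 1 was labelled MOLM13 and replicate 2 was labelled OCI-AML4, both established lines grown from AML. Whether the libraries came from these lines was not tested. The labels do not state the edited share of the cells or whether edited cells were cloned, and they do not describe further cultures of a line. A group therefore has n = 2, 1 library of each labelled line, and the p-values measure the spread between these libraries only.

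S100 proteins are small proteins with paired EF-hand calcium-binding loops, and most act as dimers. Most human S100A genes lie side by side on the long arm of chromosome 1. S100A8 and S100A9 pair as calprotectin, which is abundant in neutrophils and monocytes. With S100A12 they form the calgranulins, which act outside the cell as ligands of receptors such as AGER and TLR4. S100A10 and S100A11 bind annexins, S100A4 binds non-muscle myosin, and S100A6 binds CACYBP. These 4 are made in many cell types.

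All coordinates are of GRCh38, on chromosome 1, for the whole gene as the count table gives it, and the counts are reads over its exons. S100A10 (ENSG00000197747) spans 151982915 to 151993859 and S100A11 (ENSG00000163191) spans 152032506 to 152047907, both on the minus strand. S100A9 (ENSG00000163220) spans 153357854 to 153361023 on the plus strand. S100A12 (ENSG00000163221) spans 153373711 to 153375621, and S100A8 (ENSG00000143546) spans 153390032 to 153391073, both on the minus strand. S100A6 (ENSG00000197956) spans 153534599 to 153536244 and S100A4 (ENSG00000196154) spans 153543613 to 153550136, again on the minus strand.

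Promoter stretches of 3 genes are printed from RefSeq (GRCh38.p14) because they belong to the S100 gene with the most RNA and to calgranulins that were almost or wholly without counts. Each is the part, outside annotated exons, of the 250 bases before the RefSeq start, written 5′ to 3′ on the strand of the gene. That of S100A11 (chr1:152037036-152037254, minus strand) lies inside the longer gene model of the count table. That of S100A9 is chr1:153357604-153357853 on the plus strand and that of S100A12 is chr1:153375650-153375871 on the minus strand. Capitals mark matches on either strand. The letters searched were TATAAA for the TATA box, TTNNGNAA for the site of C/EBP factors, GAGGAA for that of the myeloid factor PU.1, TGANTCA for that of the AP-1 factors and GGGCGG for the GC box.
S100A11: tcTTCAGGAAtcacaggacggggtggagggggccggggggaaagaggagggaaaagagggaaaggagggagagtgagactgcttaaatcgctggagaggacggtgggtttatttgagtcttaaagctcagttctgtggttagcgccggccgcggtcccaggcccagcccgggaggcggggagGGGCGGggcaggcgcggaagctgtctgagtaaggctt
S100A9: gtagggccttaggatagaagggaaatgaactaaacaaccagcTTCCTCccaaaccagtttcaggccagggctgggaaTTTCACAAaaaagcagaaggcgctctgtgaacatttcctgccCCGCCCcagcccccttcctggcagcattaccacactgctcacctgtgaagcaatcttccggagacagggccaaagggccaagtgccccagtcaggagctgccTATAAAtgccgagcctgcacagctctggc
S100A12: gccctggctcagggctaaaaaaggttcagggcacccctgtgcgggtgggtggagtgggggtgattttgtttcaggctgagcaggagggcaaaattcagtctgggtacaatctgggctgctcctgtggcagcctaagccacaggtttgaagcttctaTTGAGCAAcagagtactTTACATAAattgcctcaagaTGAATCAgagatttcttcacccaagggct
The printed S100A11 stretch held 1 C/EBP and 1 GC box match. The S100A9 stretch held 1 match each to the TATA box, C/EBP, PU.1 and GC box letters. The S100A12 stretch held 2 C/EBP matches and 1 AP-1 match. The printed stretches of S100A11 and S100A12 are only 219 and 222 bases long. Over the whole 250 bases, S100A11 had 2 C/EBP matches and S100A12 also had 1 TATA box match. Among 35116 promoter windows of 250 bases, 10.7% held the TATA box letters, 33.2% those of C/EBP, 23.6% those of PU.1, 6.57% those of AP-1 and 42.6% those of the GC box. No 2 of these motifs overlapped in the printed stretches. A match describes the letters only.

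The promoter windows of the 7 genes differed in base composition. The median window of all 35116 had a GC content of 58.0% and 11 CpG dinucleotides. Those of S100A10 (71.2% GC, 24 CpG), S100A6 (70.0%, 24 CpG) and S100A11 (63.6%, 15 CpG) were above both medians. S100A4 had 62.8% GC but 7 CpG. The calgranulin windows had 55.6% GC and 4 CpG for S100A9, 49.2% GC and 1 CpG for S100A12, and from 51.2% to 54.0% GC with 2 CpG at each of the 3 RefSeq starts of S100A8.

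The RNA of 4 of the 7 genes was present in every library, and that of the calgranulins was close to absent. Levels between genes are compared per length, as counts per 1000000 counts after TMM scaling (CPM), per kilobase of exon. S100A11 averaged 52.5 CPM per kilobase over the 8 libraries (range 17.9 to 99.4), a level at the 97.8th percentile of the 24057 genes tested. S100A10 averaged 8.85 (2.58 to 18.7), S100A4 averaged 7.49 (1.82 to 12.1) and S100A6 averaged 6.51 (2.96 to 9.75). S100A11 stood above the other 6 genes in each library. The ranges of S100A10, S100A4 and S100A6 overlapped, and their order is not separated beyond the spread of the libraries.

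S100A9 averaged 0.61 CPM per kilobase, at the 22.3rd percentile of tested genes. AAVS1 KO libraries held 20 and 0 of its counts (replicates 1 and 2) and HOTSCRAMBL KO libraries 12 and 18. AAVS1 CBE libraries held 8 and 0, and HOTSCRAMBL CBE libraries 10 and 2. Those of S100A8, its partner in calprotectin, were 0 and 0, 0 and 6, 8 and 0, and 0 and 2 in the same order. Neither gene separated edited from control libraries. S100A12 had 0 counts in all 8 libraries. Taken at 3 counts, this allows a level of up to 0.153 CPM in the shallowest and 0.0831 CPM in the deepest library. Summed over libraries, 70 counts of S100A9 and 16 of S100A8 gave a ratio of 6.8 per kilobase, with an exact 95% interval of 3.91 to 12.5. Not divided by length, the ratio of counts was 4.38. The lengths used, 573 bases for S100A9 and 891 for S100A8, join all annotated exons and need not be those of the mRNA. The size of the ratio therefore depends on them. The interval and the 3-count limits take each read as independent. Both reads of a pair were counted, so they understate even the counting error.

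The low calgranulins stood beside abundant RNA of the early granule proteases. PRTN3 ran from 993 to 1755 CPM and AZU1 from 524 to 1006 CPM. Of the granulocyte list, the late granule and neutrophil genes LTF, LCN2, CAMP and FCGR3B had 0 counts in every library, and CEACAM8 had 8 in all. Among monocyte markers, LYZ ran from 116 to 701 CPM while CD14, a surface receptor of monocytes, reached 2.59 CPM and was at 0 in 5 of 8 libraries. SPI1, the myeloid factor PU.1, ran from 247 to 286 CPM, CD33 from 135 to 196, FLT3 from 173 to 276 and PTPRC from 61.9 to 132. The progenitor markers CD34 and KIT reached 1.7 and 0.629 CPM. HBB, CD3E and PPBP, which mark red cells, T cells and platelets, were at 0 counts in each library.

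**Figure D1:**
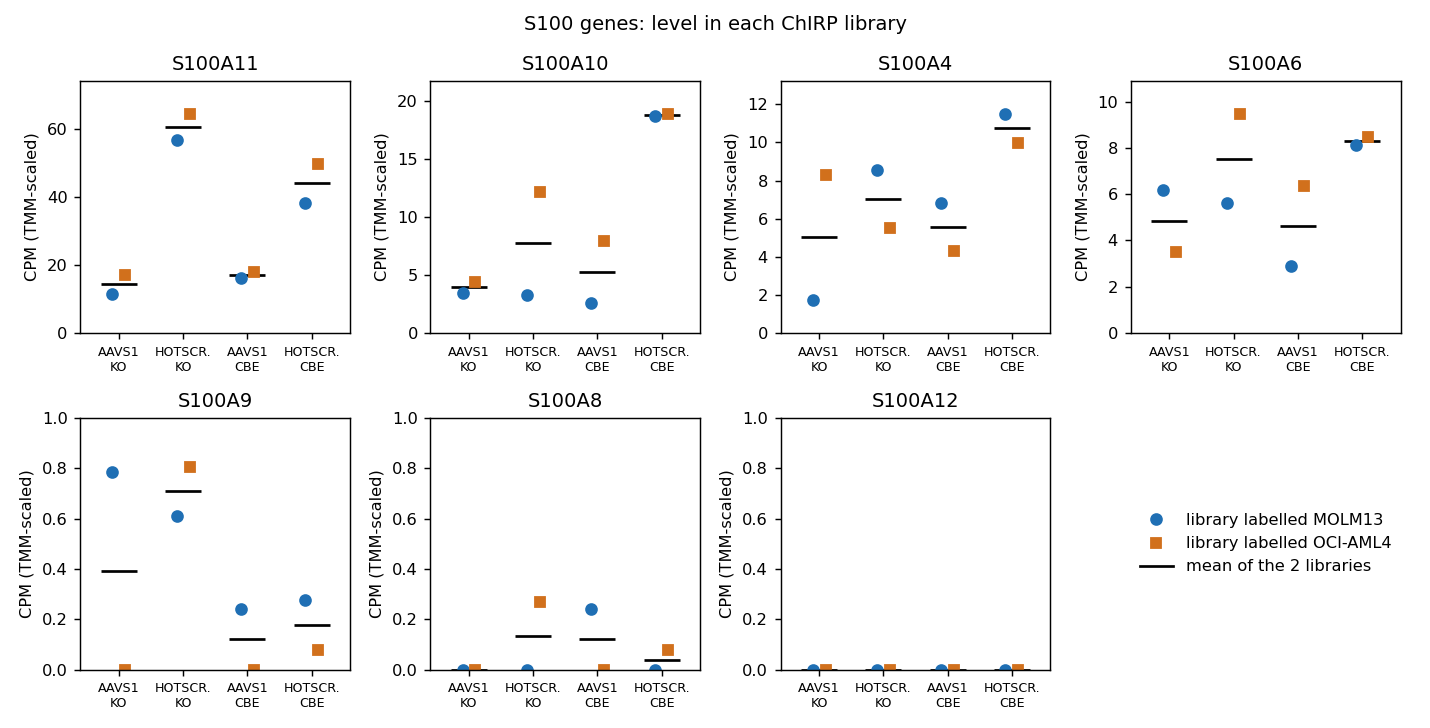
Level of each S100 gene in the 8 ChIRP libraries, in CPM after TMM scaling on a linear axis that starts at 0 and has its own height for each gene. Circles are libraries labelled MOLM13, squares those labelled OCI-AML4, and bars are the mean of the 2 libraries; S100A11 sits between 38.3 and 64.5 CPM with HOTSCRAMBL edited and between 11.6 and 18.0 in the AAVS1 libraries, while S100A12 lies at 0.

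Summed, the 7 genes took a larger share of the counts in all 4 HOTSCRAMBL libraries than in any AAVS1 library. As counts per 1000000 of the raw total, the share was 24.7 (exact 95% binomial interval 22.8 to 26.8) and 35.4 (33.0 to 37.8) in AAVS1 KO, replicates 1 and 2. It reached 71.5 (67.9 to 75.2) and 86.2 (82.6 to 90.0) after HOTSCRAMBL KO. These intervals take each read as independent, though both reads of a pair were counted, and so understate counting error. The AAVS1 CBE libraries gave 30.4 and 38.8, against 73.2 and 84.3 for HOTSCRAMBL CBE. No test was made of the sum: with 2 libraries against 2, an exact two-sided permutation test cannot go below p = 0.333. S100A11 alone gave between 48.9% and 75.8% of the S100 counts of a library. In these bulk samples, fewer cells of a type and less RNA per cell cannot be told apart.

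**Figure D2:**
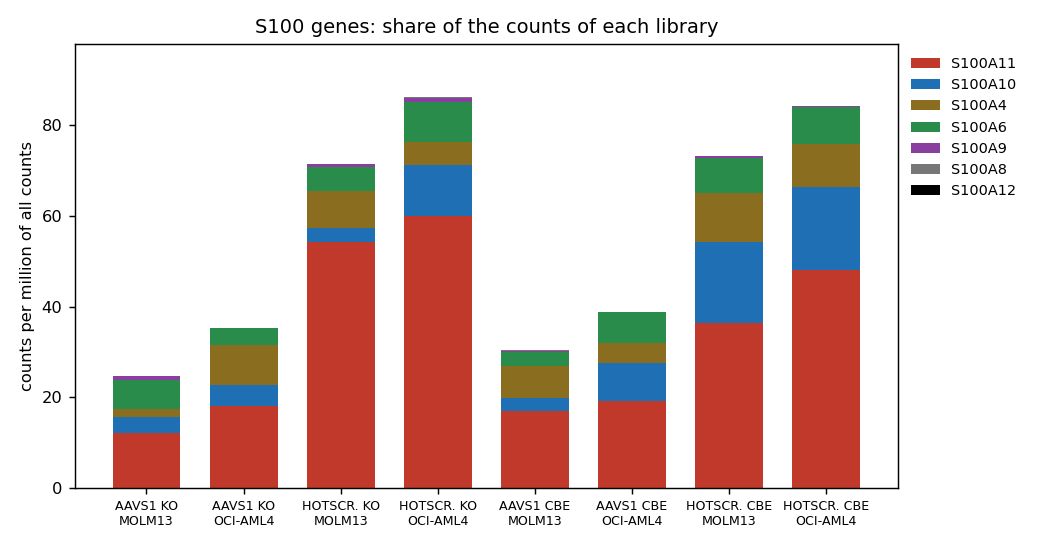
Share of all counts taken by the 7 S100 genes in each library, as counts per 1000000 of the raw total (the y axis), stacked by gene. The 4 HOTSCRAMBL libraries reach 71.5 to 86.2 and the 4 AAVS1 libraries 24.7 to 38.8; S100A11 is the bottom block, and S100A8 and S100A12 are too low to see.

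The first comparison asks what Cas9 editing of HOTSCRAMBL changed against Cas9 editing of AAVS1. S100A11, which binds annexin A1, rose, and the other tested S100 genes did not pass the test. Of the 7 genes, 5 had enough counts to be tested; S100A8 and S100A12 did not. S100A9 passed the filter on the counts of a few libraries, so its fitted fold is not given. With edgeR's quasi-likelihood test and Benjamini-Hochberg adjustment over 24057 genes, 1 of the 5 was called at an adjusted p under 0.05, against 8.76% of all tested genes (4.51% called higher, 4.25% lower).

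S100A11 had levels of 11.6 and 17.0 CPM in AAVS1 KO and of 56.8 and 64.5 CPM in HOTSCRAMBL KO. Both edited libraries lay above both controls, and the means were 14.3 ± 3.78 and 60.7 ± 5.48 CPM (SD, n = 2). The fitted log2 fold change was 2.09 (SE 0.276, 95% interval 1.52 to 2.65, edgeR adjusted p 4.86e-06), which is a 4.24-fold rise. The ratio within a labelled line was 2.28 on the log2 scale for MOLM13 and 1.92 for OCI-AML4.

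S100A10, known as the light chain of the annexin A2 complex, was at 3.45 and 4.44 CPM in AAVS1 KO and at 3.31 and 12.2 CPM in HOTSCRAMBL KO. The groups overlapped, because the MOLM13-labelled edited library was as low as the controls. The log2 fold change was 1.00 (SE 0.653, 95% interval -0.34 to 2.35, edgeR adjusted p 0.429), and it was -0.06 when replicate 2 of HOTSCRAMBL KO was left out.

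S100A6 was at 6.19 and 3.52 CPM in AAVS1 KO and at 5.61 and 9.47 CPM in HOTSCRAMBL KO, so the groups overlapped. Its log2 fold change was 0.64 (95% interval -0.59 to 1.87, edgeR adjusted p 0.616). S100A4 was at 1.72 and 8.31 CPM in AAVS1 KO and at 8.56 and 5.49 CPM in HOTSCRAMBL KO. It was higher in the edited library under the MOLM13 label (log2 ratio 2.26) and lower under the OCI-AML4 label (-0.59). Its fitted log2 fold change was 0.48 (95% interval -0.86 to 1.81, edgeR adjusted p 0.743), and it was -0.47 without replicate 1 of AAVS1 KO, the library with 44 S100A4 counts. For S100A9 the edgeR adjusted p was 0.845.

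The second comparison asks the same of base editing. S100A11 and S100A10 rose with base editing of HOTSCRAMBL against base editing of AAVS1, and S100A4 and S100A6 did not pass the test. That is 2 of 5 tested genes called by edgeR, both higher, against 8.83% of all tested genes (4.56% called higher, 4.27% lower).

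S100A11 stood at 16.3 and 18.0 CPM in AAVS1 CBE and at 38.3 and 49.9 CPM in HOTSCRAMBL CBE. The groups did not overlap, with means of 17.1 ± 1.19 and 44.1 ± 8.17 CPM (SD, n = 2). The log2 fold change was 1.35 (SE 0.255, 95% interval 0.83 to 1.88, edgeR adjusted p 6.39e-04), a 2.55-fold rise, with ratios of 1.23 under the MOLM13 and 1.47 under the OCI-AML4 label.

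S100A10 stood at 2.61 and 7.91 CPM in AAVS1 CBE and at 18.7 and 18.9 CPM in HOTSCRAMBL CBE. The edited libraries were alike and above both controls, which differed between themselves. The log2 fold change was 1.93 (SE 0.445, 95% interval 1.01 to 2.85, edgeR adjusted p 0.00488), a 3.81-fold rise. The call rested on the MOLM13-labelled libraries: it was lost without replicate 1 of AAVS1 CBE (log2 fold change 1.48, adjusted p 0.239) and without replicate 1 of HOTSCRAMBL CBE (1.33, adjusted p 0.325). It was also lost in an edgeR fit of only the 4 CBE libraries (1.92, adjusted p 0.0975).

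S100A4 was at 6.80 and 4.31 CPM in AAVS1 CBE and at 11.5 and 9.99 CPM in HOTSCRAMBL CBE. S100A6 was at 2.88 and 6.35 CPM in AAVS1 CBE and at 8.14 and 8.46 CPM in HOTSCRAMBL CBE. For both genes the 2 edited libraries lay above the 2 controls, and neither passed the test. The log2 fold change was 0.94 for S100A4 (95% interval -0.09 to 1.96, edgeR adjusted p 0.302) and 0.90 for S100A6 (-0.18 to 1.98, adjusted p 0.36). For S100A9 the edgeR adjusted p was 0.95.

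**Figure D3:**
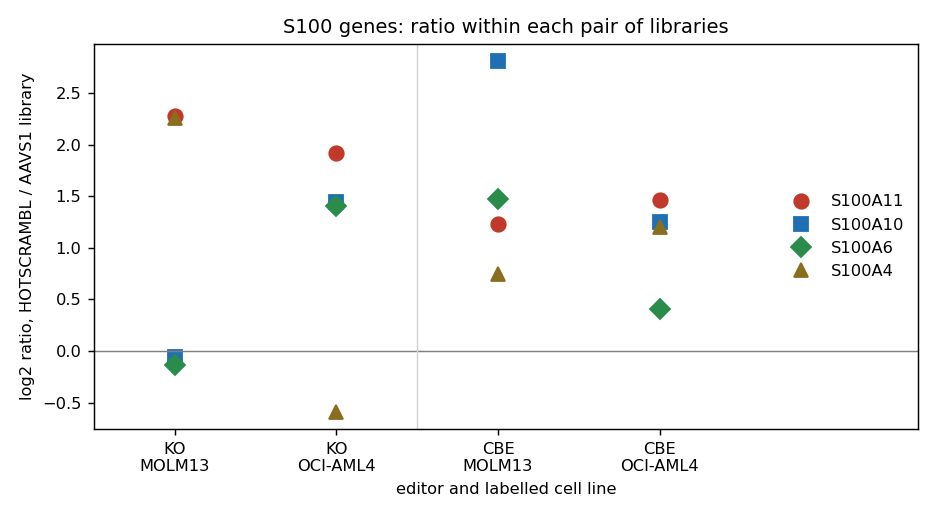
Log2 ratio of the HOTSCRAMBL to the AAVS1 library of the same editor and labelled line, for the 4 S100 genes present in every library; each point is 1 pair of libraries and the grey line is no difference. S100A11 lies between 1.23 and 2.28 in all 4 pairs, and S100A10, S100A6 and S100A4 each have a point below 0 with KO.

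The difference between the 2 edits was tested directly, as the log2 fold change with KO minus that with CBE. No S100 gene passed: 0 of 5 by edgeR, none with an unadjusted p under 0.05, and 0 by DESeq2 and by limma-voom, against 3.19% of all genes called by edgeR (1.74% higher, 1.45% lower). For S100A11 the difference was 0.73 (95% interval -0.08 to 1.55, edgeR adjusted p 0.422), and for S100A10 it was -0.93 (-2.64 to 0.78, adjusted p 0.684). It was -0.26 for S100A6 (-1.92 to 1.40) and -0.46 for S100A4 (-2.17 to 1.24). These intervals include 0 and also differences of more than 2-fold, so they do not show that the edits acted alike on these genes.

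**Figure D4:**
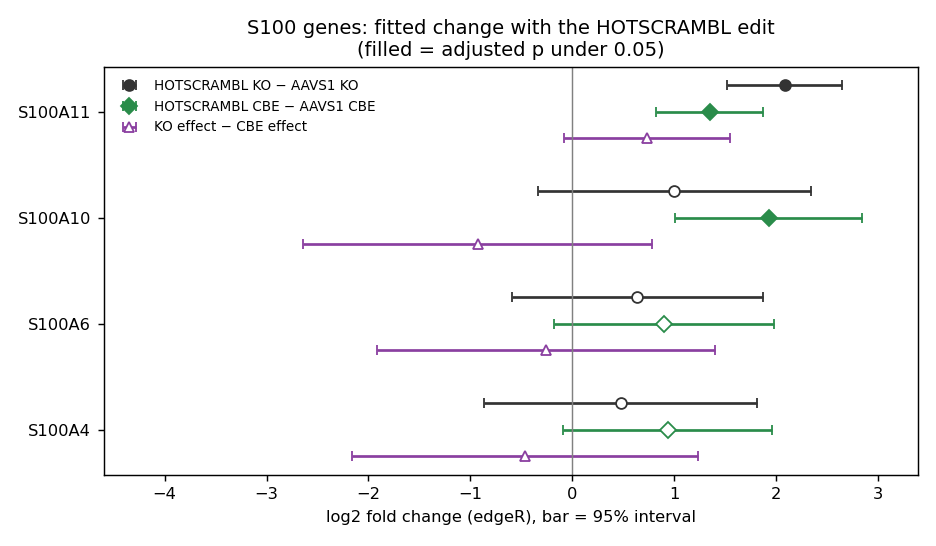
Fitted log2 fold changes from edgeR with 95% intervals for S100A11, S100A10, S100A6 and S100A4: KO (circles), CBE (diamonds) and KO minus CBE (triangles), with filled symbols at an adjusted p under 0.05. The filled symbols are S100A11 at 2.09 and 1.35 and S100A10 at 1.93, and each interval of a difference crosses 0.

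The controls were compared to see whether the editor alone mattered. S100A11 differed by -0.27 on the log2 scale between AAVS1 KO and AAVS1 CBE (95% interval -0.95 to 0.42, edgeR adjusted p 0.991) and S100A10 by -0.37 (-1.75 to 1.01, adjusted p 0.992). With edgeR 0 of 5 S100 genes were called and none had an unadjusted p under 0.05. Of all genes 0% were called, with 918 at an unadjusted p under 0.05, 35 called by DESeq2 and 0 by limma-voom.

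Between the MOLM13-labelled and the OCI-AML4-labelled libraries, S100A11 differed by -0.29 (95% interval -0.66 to 0.08, edgeR adjusted p 0.67) and S100A10 by -0.59 (-1.31 to 0.13, adjusted p 0.649), both lower under the MOLM13 label. Here too 0 of 5 S100 genes were called by edgeR, DESeq2 or limma-voom and none had an unadjusted p under 0.05, while 0.495% of all genes were called by edgeR (0.237% higher, 0.258% lower). An interaction term tested whether editing of HOTSCRAMBL acted differently under the 2 line labels; it called 0 of 5 S100 genes with each of the 3 tools and none at an unadjusted p under 0.05. Over all genes that term called 0% with edgeR, with 985 at an unadjusted p under 0.05, 68 called by DESeq2 and 0 by limma-voom. The lack of calls does not show that the edit acted alike under both labels.

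The other genes of the S100 system were taken from lists. Of 13 further S100 genes, 5 were tested (S100A1, S100A3, S100A7A, S100A13 and S100P), none above 5.79 CPM in any library. With edgeR 0 were called with either edit and 0 had an unadjusted p under 0.05; DESeq2 called 1 with KO, S100A3, and 0 with CBE. The median log2 fold change of these 5 was 0.13 with KO and 0.15 with CBE, beside -0.01 and -0.02 over all genes tested. It hides unlike genes, with a fold above 0 for 3 of the 5 with each edit. S100A13 averaged 4.82 and 2.08 CPM with AAVS1 and HOTSCRAMBL KO and 3.32 and 1.07 CPM with CBE. S100P averaged 1.49 and 1.62 CPM with KO and 0.757 and 2.64 CPM with CBE. S100A7A was at 0 CPM in both CBE groups, so its CBE fold has no meaning. The CBE median and the CBE count of 3 of 5 were still taken over a set that includes it. S100A2, S100A5, S100A7, S100A14 and S100Z had 0 counts.

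Of 10 receptor and signalling genes, 8 were tested, and the same pair was called with each edit: BSG, a receptor of S100A9, was higher and AGER, the receptor known as RAGE, was lower. AGER averaged 54.1 ± 17.8 CPM in AAVS1 KO and 25.6 ± 1.25 in HOTSCRAMBL KO (SD, n = 2), a log2 fold change of -1.06 (edgeR adjusted p 0.00743). It averaged 51.3 ± 8.25 CPM in AAVS1 CBE and 29 ± 9.25 in HOTSCRAMBL CBE (-0.81, edgeR adjusted p 0.0205). The KO call was lost without replicate 1 of AAVS1 KO (adjusted p 0.279) or of HOTSCRAMBL KO (0.222). The CBE call was lost without replicate 1 of AAVS1 KO (0.0517) and without any of the 4 CBE libraries (0.158 to 0.219). Both calls were lost in fits of only the 4 libraries of the comparison (0.0986 with KO, 0.0996 with CBE).

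BSG rose from 520 ± 116 to 834 ± 74.3 CPM with CBE, a log2 fold change of 0.70 (edgeR adjusted p 8.46e-06). With KO it averaged 518 ± 106 and 692 ± 147 CPM (0.42, edgeR adjusted p 0.00518), and that call was lost without any of the 4 KO libraries (adjusted p 0.0547 to 0.178) and without TMM scaling (0.105). TLR4, the other main calgranulin receptor, ran from 2.89 to 12.8 CPM and was not called; its co-receptor LY96 had 0 counts. CD33, a receptor bound by S100A9, was not called either, at 188 ± 11 and 151 ± 22.8 CPM with AAVS1 and HOTSCRAMBL KO.

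Among 10 protein partners, edgeR called ANXA6 higher and AHNAK lower with KO, and ANXA5 and MYH9 higher and AHNAK lower with CBE. AHNAK, a giant scaffold protein that binds the S100A10 and annexin A2 complex, fell with KO, from 1794 ± 304 to 955 ± 76.4 CPM (log2 fold change -0.90, edgeR adjusted p 2.40e-08). It fell with CBE too, from 1767 ± 243 to 1070 ± 8.43 CPM (-0.72, edgeR adjusted p 1.26e-06). ANXA2, the direct partner of S100A10, was not called, at 8.64 ± 2.58 and 12.4 ± 6.15 CPM with AAVS1 and HOTSCRAMBL KO and at 9.02 ± 4.02 and 15.8 ± 4.49 CPM with CBE. ANXA1, the partner of S100A11, was not called, at 5.17 ± 1.44 and 11.5 ± 5.78 CPM with KO and 7.07 ± 3.4 and 3.73 ± 1.93 CPM with CBE. CACYBP, the partner of S100A6, was not called and had group means between 37.8 and 46.7 CPM.

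MYH9, the myosin heavy chain bound by S100A4, rose with CBE from 1178 ± 66.7 to 1507 ± 65.6 CPM (log2 fold change 0.36, edgeR adjusted p 0.00358). That call was lost without replicate 1 or 2 of AAVS1 CBE (adjusted p 0.119 and 0.07), without replicate 2 of HOTSCRAMBL CBE (0.0692), without TMM scaling (0.102), and in the fit of only the 4 CBE libraries (0.0756). ANXA6 rose with KO from 14.3 ± 2.08 to 45.3 ± 7.45 CPM (1.66, edgeR adjusted p 3.93e-04), a call that missed the threshold without replicate 2 of AAVS1 KO (0.052). With CBE ANXA6 was at 8.92 ± 0.41 and 17.9 ± 6.14 CPM (0.96, edgeR adjusted p 0.108).

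Of 10 transcription factors known for control of S100A8 and S100A9, edgeR called 4 higher (CEBPA, CEBPB, CEBPD and IRF8) and 2 lower (GFI1 and RUNX1) with KO, and 1 higher (CEBPA) with CBE. S100A8 and S100A9 stayed near 0 in the same libraries. CEBPB, a factor of the monocyte and granulocyte lineages, rose with KO from 45.8 ± 6.0 to 138 ± 7.25 CPM (log2 fold change 1.60, edgeR adjusted p 2.16e-06), and with CBE it was at 48.5 ± 15.1 and 53.7 ± 2.74 CPM. CEBPA, which drives early granulocyte commitment, rose by 1.00 with KO (edgeR adjusted p 4.62e-06) and by 0.61 with CBE (adjusted p 0.00212). The CBE call of CEBPA was lost without either AAVS1 CBE library (0.0707 and 0.0845), without replicate 2 of HOTSCRAMBL CBE (0.115), and in the fit of only the 4 CBE libraries (0.0673). CEBPD rose by 0.89 with KO (edgeR adjusted p 1.88e-04; 0.0511 without replicate 1 of AAVS1 KO). SPI1 was not called, with group means from 255 to 278 CPM, and CEBPE did not exceed 1.72 CPM.

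Of 10 listed neighbours of the S100 genes on chromosome 1, 9 were tested, and edgeR called INTS3 and SLC27A3 lower with KO, and ILF2 higher and INTS3 lower with CBE. INTS3, a subunit of the Integrator complex, fell with KO from 274 ± 18.8 to 170 ± 13.9 CPM (log2 fold change -0.68, edgeR adjusted p 4.06e-04; 0.0647 without replicate 1 of AAVS1 KO). With CBE it was at 267 ± 9.47 and 199 ± 10.3 CPM (-0.42, edgeR adjusted p 0.0194), a call lost without either AAVS1 KO library (0.0559 and 0.0554), without any CBE library (0.161 to 0.251) and in the fit of only the 4 CBE libraries (0.0935). The median log2 fold change of the 9 was -0.11 with KO and -0.08 with CBE.

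Several measures moved with the S100A11 and S100A10 results. In a list of 12 abundant cytosolic mRNAs, such as those of ferritin, thymosin and actin, edgeR called 10 higher with KO (median log2 fold change 1.26) and 12 higher with CBE (1.03), and none lower. By the gene models of the count table, only TMSB10 and FTL have at most 1100 bases of exon, and EEF1A1 has 10063. Such a model joins all exons annotated for a gene, so it does not give the length of the mRNA present. Their summed level ran from 3904 to 4722 CPM in the 4 AAVS1 libraries and from 8395 to 10269 CPM in the 4 HOTSCRAMBL libraries. FTL, the ferritin light chain, rose by 1.74 with KO (edgeR adjusted p 9.52e-14) and by 1.02 with CBE (adjusted p 2.56e-09). Mitochondrially encoded genes took 6.77% to 7.23% of the counts in AAVS1 libraries and 10.2% to 11.9% in HOTSCRAMBL libraries. Their part in the S100 results was not tested.

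The gene models of all 7 S100 genes are short, from 485 bases of exon for S100A12 to 1012 for S100A10. Among tested protein-coding genes of at most 1100 bases, a limit set after the values were seen, 12.1% of 314 were called higher and 0.955% lower with KO, against 6.3% and 6.85% of 13368 longer genes. With CBE 21.7% of the short genes were called higher and 0.637% lower, against 6.96% and 6.52% of the longer genes. These lengths are of gene models, which join all annotated exons and can exceed the length of the mRNA present. The part of length in the S100 results was not tested.

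Part of the monocyte marker list moved with the KO group. EdgeR called 4 of 10 higher with KO (CSF1R, CST3, LYZ and MNDA), 2 of 10 higher with CBE (CST3 and CTSS) and none lower. Their summed level was 310 to 353 CPM in the AAVS1 libraries, 343 to 394 CPM with HOTSCRAMBL CBE and 836 to 1131 CPM with HOTSCRAMBL KO. Most of that difference was LYZ: without it the sum was 201 to 230 CPM in AAVS1 KO, 330 to 430 in HOTSCRAMBL KO, 194 to 211 in AAVS1 CBE and 196 to 242 in HOTSCRAMBL CBE. ITGAM, an integrin of myeloid cells, was at 58.7 and 51.3 CPM in AAVS1 KO and at 17.3 and 43.2 CPM in HOTSCRAMBL KO, and was not called. FCN1, a monocyte lectin, had 18 and 3 counts in AAVS1 KO and 0 in both HOTSCRAMBL KO libraries, and was not called. LYZ, lysozyme, rose with KO from 130 ± 14.8 to 603 ± 138 CPM (log2 fold change 2.20, edgeR adjusted p 9.41e-13) and was at 129 ± 18.4 and 150 ± 3.18 CPM with CBE (0.23, adjusted p 0.338). S100A11 rose with both edits, and the part of the monocyte genes in its KO result was not tested. The granulocyte list ran from 2831 to 3431 CPM in total; edgeR called PRTN3 higher and AZU1 and ELANE lower with KO, and CSF3R lower with CBE.

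Of 8 AML and progenitor markers, 7 were tested, with LYZ higher with KO and PTPRC higher with CBE. Summed levels stayed within 0 to 1.66 CPM for erythroid, 20.7 to 38.9 for lymphoid and 12.9 to 21.7 for platelet and megakaryocyte markers, with no gene of these lists called by edgeR with either edit. Of 4 tested nuclear-retained RNAs, edgeR called MALAT1 higher and NEAT1 lower with KO, and TUG1 higher and KCNQ1OT1 and NEAT1 lower with CBE.

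**Figure D5:**
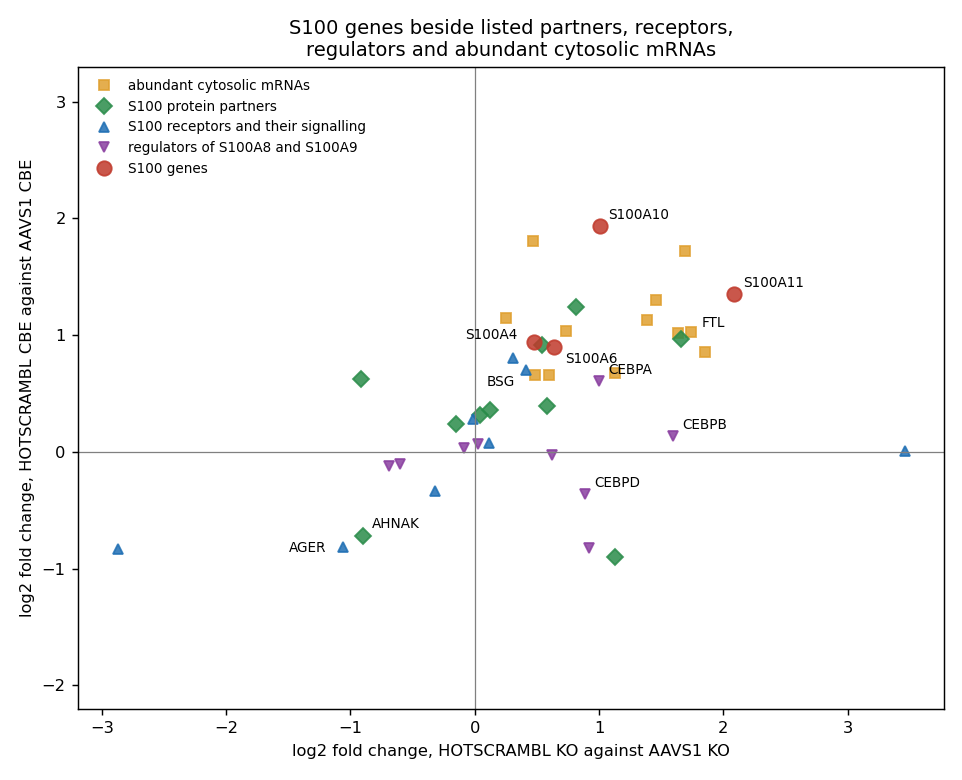
Log2 fold change with KO (x axis) against that with CBE (y axis) from edgeR, for tested S100 genes (circles), abundant cytosolic mRNAs (squares), S100 protein partners (diamonds), receptors (upward triangles) and regulators of S100A8 and S100A9 (downward triangles); S100A9 and CEBPE, at very low counts, are not drawn. The S100 genes lie in the upper right with the squares, S100A11 at 2.09 and 1.35, and AGER and AHNAK lie in the lower left.

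The genes whose levels were most like each S100 gene were sought among 12029 tested genes at or above the median level, as a description over 8 libraries that share group and depth. For S100A11 they were RPL8 (Pearson r 0.989), C5orf63 (0.988) and RPL11 (0.988), of which RPL8 and RPL11 encode ribosomal proteins. For S100A10 they were CNBP (0.976), RTN3 (0.973) and SET (0.97). For S100A4 they were ZDHHC12 (0.971), ETV5 (0.96) and P4HA2 (0.95), and for S100A6 CCNB1IP1 (0.949), RO60 (0.948) and NRIP3 (0.947).

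Reads were counted without strand and reads over several genes were left out, so overlapping genes bear on these values. S100A4 overlaps S100A3 on the same strand, which had 0 to 48 counts per library. S100A6 overlaps ENSG00000238279 (0 to 12 counts) and S100A11 overlaps ENSG00000229021 (0 to 42 counts), both on the plus strand, and reads of these antisense pairs cannot be told apart. The table lists 8 S100A11 pseudogenes with 17 counts in all.

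Library totals ran from 20548300 to 37970163 counts, and 21945 to 26083 genes had a count in a library. Of the genes called with KO, 51.5% were higher, and of those called with CBE, 51.6%. Without TMM scaling these shares were 33.1% and 32.6%, and the median log2 fold change of all genes moved to -0.17 and -0.15. S100A11 was called higher with both edits under each scaling tried, and so was S100A10 with CBE.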

How the data were processed

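RNA from 8 ChIRP libraries was measured, 2 in each of 4 groups taken from the sample titles. The authors deposited whole-number counts per gene, not normalised. Per the file headers they were made by featureCounts 2.0.6 with the Ensembl 112 annotation of GRCh38, without a strand option, without reads placed at several positions or over several genes, and with both reads of a pair counted (71.8% to 74.9% of the values from 1 to 20 were even). The aligner's settings and duplicate removal are not given in the sources used here. Records of 2 genes broken over lines were rejoined, symbols were paired with 62541 of 63140 identifiers (99.05%), and 0 columns remained unused.

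Tests used edgeR 4.0.16 (R 4.3.3): robust quasi-likelihood F-test, TMM scaling, filterByExpr (minimum count 10, 24057 genes kept), terms for 4 groups and the labelled line (residual degrees of freedom: 3), and Benjamini-Hochberg adjustment with a threshold of 0.05. The test of the interaction of edit and line label had a further term, and so fewer residual degrees of freedom. Standard errors were computed from the F statistic. DESeq2 1.42.0, limma-voom (limma 3.58.1), other scalings and filters, fewer libraries and a fit without the line were alternatives; the earlier quasi-likelihood method of edgeR was added after seeing the data. The fitting code was tested on simulated data. Levels are CPM after TMM scaling. Library totals from 20548300 to 37970163 counts limit low genes to the floor of 3 counts. The exact intervals and floors address counting error alone. They understate it, because both reads of a pair were counted as if independent. The reads also carry no molecular identifiers and may repeat a molecule.

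The labels tie replicate 1 to MOLM13 and replicate 2 to OCI-AML4 throughout; this pairs the libraries, and the line term is the replicate block. Deviations of same-numbered libraries from their group means correlated with r from 0.00851 to 0.0245 over tested genes and from 0.0411 to 0.117 over genes above the median level. Between the line labels edgeR called 0.495% of tested genes. Whether the labels name 2 different lines was not tested, so a result under both labels is not shown to hold in 2 lines.

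The 7 genes and all lists were chosen with earlier results of these data known. Named beside them were the gene with the smallest p in each direction of a list and fixed partners, receptors and factors. Promoter sequences are from RefSeq; protein sequences were not used here.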

Additional observations from a re-analysis of the deposited data

Results flagged for a closer look

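The difference between the 2 edits was tested by the interaction term in edgeR (log2 fold change with KO minus that with CBE). It passed the threshold for 17 genes of the lists set beside the S100 genes. Of the 5 tested S100 genes 0 passed, against 767 of all 24057 tested genes (3.19%). At that share, 0 of 5 does not set the S100 genes apart from the lists. The 6 of the 17 listed genes that are named with values follow. Among factors known for control of S100A8 and S100A9 it was 1.46 for CEBPB (adjusted p 0.0032), 1.25 for CEBPD (adjusted p 7.42e-04), 1.74 for KLF4 (adjusted p 0.0298) and -0.57 for GFI1 (adjusted p 0.044). With a library left out, the CEBPB call was lost without replicate 1 of AAVS1 KO, replicate 2 of HOTSCRAMBL KO, replicate 1 of AAVS1 CBE or either HOTSCRAMBL CBE library (adjusted p 0.0605 to 0.187). The CEBPD call was lost without replicate 1 of AAVS1 KO, of AAVS1 CBE or of HOTSCRAMBL CBE (0.0613 to 0.0699). The KLF4 call was lost without any one of the 8 libraries (0.0677 to 0.306). So was that of GFI1 (0.108 to 0.397), which was also lost with size factors of the DESeq2 type (0.07) and without the line term (0.156). KLF4, a factor of monocyte development, averaged 17.4 ± 4.7 CPM after AAVS1 KO and 32.8 ± 2.32 after HOTSCRAMBL KO, against 24.9 ± 5.42 after AAVS1 CBE and 14 ± 0.681 after HOTSCRAMBL CBE (SD, n = 2). GFI1, a repressor in granulocyte development, averaged 339 ± 27.9 and 210 ± 4.99 CPM with KO and 340 ± 4.3 and 312 ± 12.1 CPM with CBE. The difference was 1.97 for LYZ (adjusted p 8.25e-08) and 0.72 for FTL (adjusted p 4.98e-04), and both calls held in all 17 alternatives. S100A9, with at most 20 counts in a library, was tested and not called for this difference (adjusted p 0.998), and S100A8, with at most 8, was not tested.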

How the results depend on the processing

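S100A11 kept its direction and its call in all 18 alternatives with KO (log2 fold change 1.92 to 2.26, largest adjusted p 0.011) and in all 18 with CBE (1.21 to 1.44, largest adjusted p 0.0477). S100A10 with CBE kept its direction in 18 and lost its call in 3, given in the report. Over 44 gene results and 778 values under alternatives, 705 kept direction and side of the threshold, 66 lost a call, 1 gained a call and 6 changed sign. None of those 6 had passed the test: with a library left out, S100A10 with KO ran from -0.061 (without replicate 2 of HOTSCRAMBL KO) to 1.453, S100A4 with KO from -0.473 (without replicate 1 of AAVS1 KO) to 2.229, S100A4 for the difference between edits from -1.398 to 1.304 (without replicate 2 of AAVS1 KO), S100A6 for that difference from -0.897 to 0.443 (without replicate 1 of AAVS1 KO; 0.246 without that of AAVS1 CBE), and S100A10 between controls from -0.811 to 0.369 (without replicate 2 of AAVS1 CBE). The number of S100 genes called with CBE was 1 in the fit of only the 4 libraries, and 1 to 2 with a library left out. The number of all genes called with KO was 4150 by DESeq2, 780 in the fit of only the 4 libraries, and 677 to 1674 with a library left out. With CBE it was 3351, 677, and 586 to 1885. For the difference between edits it was 2205 by DESeq2, and 226 to 371 with a library left out; between lines 715 by DESeq2, 265 by limma-voom, 193 by the earlier edgeR method, and 26 to 65 with a library left out. DESeq2 called 35 genes between controls and 68 for the difference between lines, where the earlier edgeR method called 2. Without the replicate block (the line term), edgeR called 1734 genes with KO, 1641 with CBE and 503 for the difference between edits. Among S100 genes that fit changed no call; among other named genes it ended those of AGER with CBE (adjusted p 0.0659), BSG with KO (0.113), MYH9 with CBE (0.0609), INTS3 with CBE (0.0729) and GFI1 for the difference between edits (0.156). Outside mitochondrially encoded genes, the S100 share, per 1000000 counts, became 38.0 for replicate 2 of AAVS1 KO, 80.1 and 97.8 for HOTSCRAMBL KO, 32.7 and 41.8 for AAVS1 CBE, and 82.8 and 93.9 for HOTSCRAMBL CBE. That change of the share follows from its definition, as the same S100 counts are divided by a smaller total. The cause of the other shifts was not tested, except that left-out libraries and smaller fits have fewer samples. S100A8 and S100A12 had too few counts for a test.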
